A study of Mus musculus with 16 samples.

Results

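Synaptic vesicle genes were followed in the DBA/2J mouse, a strain with progressive hearing loss that carries hearing-loss alleles of *Cdh23* and *Fscn2*. RNA came from the whole left cochlea of males. The members were the 9 genes *Snap25*, *Syt1*, *Syn1*, *Syn2*, *Syp*, *Vamp2*, *Stx1a*, *Sv2a* and *Sv2b*, of 18194 genes with a probe of their own on the array. Every probe whose only gene symbol in the array annotation was a member was taken, which gave 22 probes. A probe here is an Affymetrix set of short oligonucleotides against 1 transcript, read as a MAS5 signal on the log2 scale, so that a difference of 1 is a 2-fold difference. A probe was tested if it reached the array median of 6.90 in every array of at least 1 group. This held for 11 of the 22 probes and for 8 of the 9 genes. The only *Syn1* probe did not pass and is reported from a fit without that filter.

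Untreated mice were taken at 4 weeks of age (n = 5). Control mice (n = 5) and M+V-treated mice (n = 6) were taken at 12 weeks. Control mice had received vehicle (0.1 M sodium bicarbonate) under the skin daily for 8 weeks. M+V-treated mice had received MET (500 mg/kg) with VPA (300 mg/kg) in that vehicle over the same 8 weeks. MET, L-methionine, feeds the methyl donor of the cell, and VPA, valproic acid, inhibits Hdacs. The comparison of M+V-treated with control cochleae asks what the treatment changed at a single age, and that of control with 4 weeks joins 8 weeks of age to the vehicle injections. All animals carried the same strain alleles, no strain with normal hearing was on the arrays, and each array was made from the cochlea of 1 mouse.

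Synaptic vesicles fill with transmitter and fuse with the presynaptic membrane when calcium enters. Fusion is driven by SNARE proteins, of which *Vamp2* encodes the vesicle member and *Stx1a* and *Snap25* encode the partners on the target membrane. *Syt1* encodes a calcium sensor of the vesicle, *Syn1* and *Syn2* encode synapsins that tether vesicles in reserve, and *Syp*, *Sv2a* and *Sv2b* encode integral vesicle membrane proteins. In the cochlea such proteins are made by spiral ganglion neurons and lie in the endings of efferent fibres, whereas the ribbon synapses of inner hair cells release through otoferlin and lack synapsins.

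Promoter windows from RefSeq (GRCm38.p6), which run from 250 bases before to 50 bases after an annotated start, were at hand for 7 of the 9 genes, 12 windows in all. Short motifs were searched on both strands. The left part of the RE1 site, which binds the repressor Rest in non-neuronal cells, was searched as TTCAGCACC, its right part as GGACAG, the cyclic AMP response element as TGACGTCA and the GC box as GGGCGG. The 250 bases before the start are printed for the synapsin genes and *Syt1*, 5' to 3' on the gene's strand with matches in capitals, because *Syn2* and *Syt1* carried the largest differences below and *Syn1* alone held the left RE1 part. *Syn1* lies at chrX:20920919-20921168 on the minus strand, *Syt1* at chr10:109010976-109011225 on the minus strand and *Syn2* at chr6:115134652-115134901 on the plus strand.
Syn1: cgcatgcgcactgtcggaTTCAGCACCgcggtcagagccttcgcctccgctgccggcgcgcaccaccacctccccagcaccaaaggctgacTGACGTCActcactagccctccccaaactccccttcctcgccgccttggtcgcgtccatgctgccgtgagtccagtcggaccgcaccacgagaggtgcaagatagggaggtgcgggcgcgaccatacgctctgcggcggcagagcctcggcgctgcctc
Syt1: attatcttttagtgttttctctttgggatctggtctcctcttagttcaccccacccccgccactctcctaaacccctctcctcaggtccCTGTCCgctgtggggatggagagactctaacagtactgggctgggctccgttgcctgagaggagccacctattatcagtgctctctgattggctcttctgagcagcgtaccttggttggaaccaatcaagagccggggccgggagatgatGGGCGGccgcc
Syn2: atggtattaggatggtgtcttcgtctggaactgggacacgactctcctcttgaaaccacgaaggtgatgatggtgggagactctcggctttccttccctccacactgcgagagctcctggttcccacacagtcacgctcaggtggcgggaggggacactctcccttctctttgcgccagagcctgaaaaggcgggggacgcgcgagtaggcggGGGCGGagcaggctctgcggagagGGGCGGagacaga
In the *Syn1* window the left RE1 part stood at positions -232 to -224 and the cyclic AMP response element at -159 to -152 from the start. The capitals of the *Syt1* window mark the right RE1 part, read on the opposite strand at -161 to -156, and a GC box at -11 to -6. The *Syn2* window held GC boxes at -37 to -32 and at -13 to -8, and a further match on the opposite strand at 19 to 24 after the start, outside the bases printed. Over 32851 promoter windows the left RE1 part was found in 0.371%, the right part in 22.2%, the cyclic AMP response element in 1.79% and the GC box in 35.7%. The GC box was found in 6 of the 12 member windows, each of another gene, the right RE1 part in 1 window each of *Sv2b* and *Syt1*, and the left RE1 part and the cyclic AMP response element in *Syn1*. Such matches describe the letters of these windows.

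The arrays differed in a way that follows the groups only in part. The bioB controls, bacterial transcripts added to the hybridisation mix, read high, 8.91 to 9.62, in 8 arrays, namely those of the 4 weeks group, the first control replicate and M+V replicates 1 and 2. They read 5.73 to 6.08 in the other 8. M+V against control can therefore be compared among 4 M+V and 4 control arrays with the low level, whereas control against 4 weeks rests, within a level, on control replicate 1 alone. The labels name no batch, and what the bioB level stands for was not tested. Control replicate 1 and M+V replicates 1 and 2 also had the highest ratios of 3' to 5' *Gapdh* signal, 0.16 to 0.19 on the log2 scale against -0.17 to 0.07 in the other arrays. The cochlear list (*Coch*, *Otos* and others) had 10 of its 13 genes tested, and its summed level ran from 16.68 to 16.96 at 4 weeks, 16.54 to 16.59 in control and 16.19 to 16.92 in M+V-treated cochleae. In whole tissue, fewer neurons and less RNA per neuron cannot be told apart.

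No member differed between M+V-treated and control cochleae past the adjusted threshold, yet all 11 tested probes and all 9 genes had a lower mean in the M+V-treated group. The median difference was -0.56 over the 9 genes, against 0.02 over all 11457 tested genes. It was -0.33 without M+V replicate 2 and -0.15 among the arrays with the low bioB level. At an adjusted p under 0.05, limma called 0 of the 11 probes and 0 of 21391 probes in all (0%), and the lowest adjusted p of a member was 0.365. The study's cutoffs were 1.5-fold with an unadjusted p under 0.05. By these, 4 of the 11 probes were lower, against 1.34% of all tested probes: 1 for *Snap25*, 1 for *Syt1* and 2 for *Syn2*. At an unadjusted p under 0.05, 5 probes were lower and 0 higher, against 5.13% and 4.67% of all. The methods' test gave 3 of the 11 probes past the cutoffs, against 0.781% of all tested probes, and 0 past adjustment. The groups overlapped for every member probe, while they did not for 1.10% of all tested probes. *Snap25* and *Syn2* stand in the study's own list of genes lower with M+V, which was chosen on these arrays, so their direction is not independent evidence. The count of 4 was 2 without control replicate 1, control replicate 2, M+V replicate 2 or M+V replicate 6, and 7 without control replicate 4 or M+V replicate 3.

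Control cochleae had higher means than 4 weeks for 8 of the 9 genes, all but *Stx1a*, and none passed adjustment. The median difference was 0.39 over the 9 genes and 0.01 over all tested genes. Adjusted calls were 0 of 11 member probes in either direction, against 0.369% higher and 1.01% lower of all tested probes. At an unadjusted p under 0.05, 3 member probes were higher and 1 was lower, against 6.07% and 7.75%. The second *Syn2* probe alone passed the study's cutoffs as higher, against 1.03% of all probes. That count of 1 fell to 0 without 4 weeks replicate 2 or 4 or control replicate 2, 3 or 5, was 2 without 4 weeks replicate 1, and was 3 without 4 weeks replicate 5 or control replicate 4. The groups did not overlap for 1 of the 11 member probes, against 5.61% of all. With the bioB level as a block the median over the 9 genes was -0.08, with 6 genes below 0.

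M+V-treated cochleae were set against 4 weeks as well, a comparison that shares its arrays with both others. The median difference was -0.19 over the 9 genes and 0.03 over all tested genes, and 3 genes were above 0. All arrays at 4 weeks had the high bioB level, whereas of the M+V arrays only replicates 1 and 2 did. With the bioB level as a block the 9-gene median was -0.39, with 8 genes below 0. Without M+V replicates 1 and 2 it was 0.15, with 5 genes above 0. *Stx1a* was the only member past adjustment, and 1 of 11 probes called lower stands against 3.20% of all tested probes. At an unadjusted p under 0.05, 1 probe was higher (*Vamp2*) and 1 lower (*Stx1a*), against 11.0% and 11.2% of all. Both probes had groups that did not overlap, which held for 4.74% of all tested probes. By order of means, control was highest, then 4 weeks, then M+V for *Snap25*, *Syt1*, *Syn2*, *Sv2a* and *Sv2b*. For *Syn1*, *Syp* and *Vamp2* control was highest and 4 weeks lowest, and for *Stx1a* 4 weeks was highest.

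**Figure D1:**
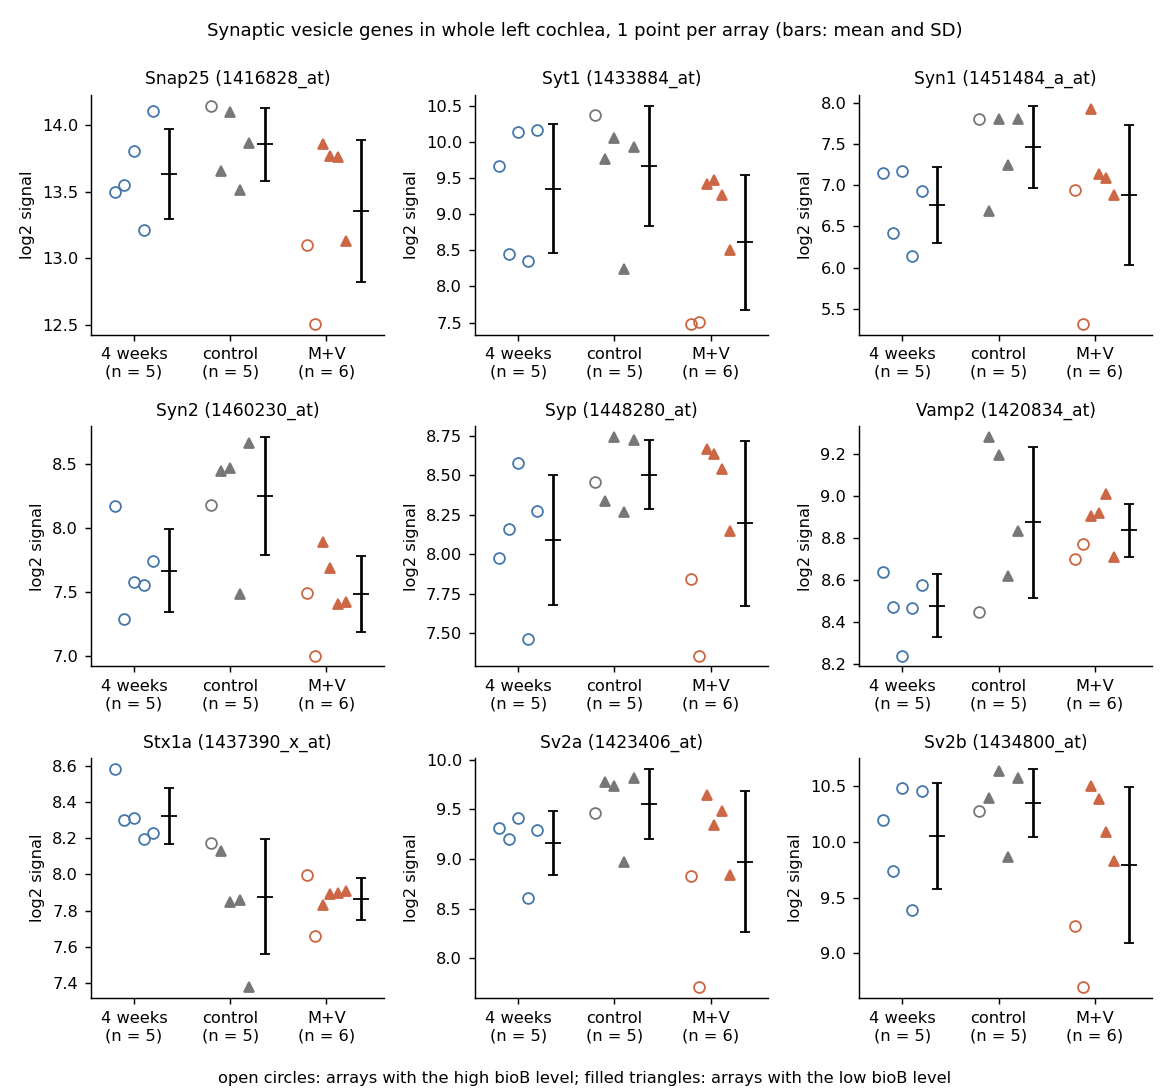
Log2 signal (y axis) of the probe used for each of the 9 genes in the 4 weeks (n = 5), control (n = 5) and M+V (n = 6) cochleae, 1 point per array, with the mean and SD beside each group. Open circles are arrays with the high bioB level and filled triangles those with the low level. M+V replicate 2 is the lowest of all 16 arrays for 6 of the 9 genes, and *Stx1a* and *Vamp2* follow other patterns than the rest.

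Among the SNARE genes, *Snap25* and the other SNARE members differed in pattern. *Snap25* read 13.50, 13.55, 13.80, 13.21 and 14.10 at 4 weeks, 14.15, 13.66, 14.10, 13.51 and 13.86 in control, and 12.51 to 13.86 with a median of 13.45 in M+V-treated cochleae. M+V replicates 1, 2 and 6 lay below every control array and the other 3 lay within the control range. M+V differed from control by -0.50 (SE 0.23, 1.41-fold lower, limma adjusted p = 0.492). Control differed from 4 weeks by 0.22 (SE 0.24, limma adjusted p = 0.737). The second *Snap25* probe gave -0.64 (SE 0.23) and 0.50 (SE 0.24), the same directions, and its values correlated with those of the first at r = 0.69 over the 16 arrays.

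*Vamp2* encodes the vesicle SNARE that tetanus toxin cleaves. It read 8.64, 8.47, 8.24, 8.47 and 8.58 at 4 weeks, 8.45, 9.28, 9.20, 8.62 and 8.83 in control, and 8.70 to 9.01 with a median of 8.84 in M+V-treated cochleae. All 6 M+V arrays lay above all 5 arrays at 4 weeks, while M+V and control overlapped throughout. The difference was 0.36 (SE 0.14) from 4 weeks (adjusted p = 0.131) and -0.04 (SE 0.14) from control (adjusted p = 0.944). With the bioB level as a block, the difference from 4 weeks was 0.16 (SE 0.15, limma adjusted p = 0.539). Control differed from 4 weeks by 0.40 (SE 0.14, adjusted p = 0.208), but control replicate 1, the control array with the high bioB level, read 8.45, and the high-level difference was -0.03. The second *Vamp2* probe lay under the array median in all arrays and gave 0.74 (SE 0.73) for M+V from 4 weeks.

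*Stx1a*, the syntaxin of the presynaptic membrane, was the only member whose mean was highest at 4 weeks. It read 8.58, 8.30, 8.31, 8.19 and 8.23 at 4 weeks, 8.17, 8.13, 7.85, 7.86 and 7.38 in control, and 7.66 to 8.00 with a median of 7.89 in M+V-treated cochleae. Every control array and every M+V array lay below every array at 4 weeks. M+V was lower than 4 weeks by 1.37-fold (log2 difference -0.46, SE 0.12, adjusted p = 0.0417), and control by 1.36-fold (-0.45, SE 0.13, adjusted p = 0.113), whereas M+V and control differed by -0.01 (SE 0.12). The call against 4 weeks lost its threshold in 11 of the 16 fits that left out an array: without any 1 array at 4 weeks, control replicate 3 or 4, or M+V replicate 2, 4, 5 or 6, with adjusted p from 0.0158 to 0.109 over the 16 fits. Among the high-level arrays M+V differed from 4 weeks by -0.50 (SE 0.15, adjusted p = 0.0934), and control, from its single array, by -0.15 (SE 0.20, adjusted p = 0.946). The probe carries the suffix _x_at, of a kind whose oligonucleotides may bind other transcripts, and the second *Stx1a* probe, under the array median in all arrays, gave 0.33 (SE 0.20) in the opposite direction, with r = 0.03 between them.

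*Syt1*, the calcium sensor, had the widest spread among the members and the largest difference. It read 9.67, 8.45, 10.14, 8.36 and 10.17 at 4 weeks, 10.37, 9.76, 10.06, 8.24 and 9.94 in control, and 7.48 to 9.47 with a median of 8.89 in M+V-treated cochleae. M+V replicates 1 and 2 lay below all other arrays, at 7.48 and 7.51, and control replicate 4 lay with the lower arrays at 4 weeks. M+V differed from control by -1.06 (SE 0.48, 2.09-fold lower, adjusted p = 0.492) and control from 4 weeks by 0.32 (SE 0.50, adjusted p = 0.839). The other 3 *Syt1* probes stayed under the array median and gave -0.95 to -1.58 for M+V from control, while their correlation with the tested probe ran from 0.29 to 0.83.

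*Syn2* gave the largest ratio of difference to error among the members in M+V against control. *Syn2* read 8.18, 7.29, 7.58, 7.55 and 7.74 at 4 weeks, 8.18, 8.45, 8.47, 7.49 and 8.66 in control, and 7.00 to 7.89 with a median of 7.46 in M+V-treated cochleae. Control replicates 1, 2, 3 and 5 lay above all M+V arrays, and control replicate 4 lay among them. M+V differed from control by -0.76 (SE 0.20, 1.70-fold lower, adjusted p = 0.365), and control from 4 weeks by 0.58 (SE 0.21, adjusted p = 0.216). M+V and 4 weeks differed by -0.18 (SE 0.20). The second tested probe gave -0.80 (SE 0.26), 0.65 (SE 0.27) and -0.15 (SE 0.26) for the same comparisons, with r = 0.87 between the probes.

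The 4 untested *Syn2* probes did not agree in size or sign. For M+V from control they gave -0.22 (SE 0.25), -2.20 (SE 0.62), 0.06 (SE 0.53) and -0.02 (SE 0.61), from the brightest to the dimmest. Their correlations with the probe used were 0.69, 0.79, 0.02 and 0.27 in the same order. Among the untested, *Syn1*, from its single probe, read 7.15, 6.42, 7.17, 6.14 and 6.93 at 4 weeks, 7.80, 6.69, 7.80, 7.25 and 7.80 in control, and 5.32 to 7.92 with a median of 7.01 in M+V-treated cochleae. In all, 4 of the 5 control arrays lay above all arrays at 4 weeks, and the M+V arrays spanned both groups. Its differences were -0.59 (SE 0.38, limma adjusted p = 0.745) for M+V from control and 0.70 (SE 0.39, limma adjusted p = 0.621) for control from 4 weeks.

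The vesicle membrane proteins had lower means in M+V than in control, with smaller ratios of difference to error than *Snap25* in that comparison. *Syp*, synaptophysin, read 7.97, 8.16, 8.58, 7.46 and 8.27 at 4 weeks, 8.46, 8.34, 8.74, 8.27 and 8.72 in control, and 7.36 to 8.67 with a median of 8.34 in M+V-treated cochleae. M+V replicates 1, 2 and 6 lay below all control arrays. M+V differed from control by -0.31 (SE 0.23, adjusted p = 0.679), and control from 4 weeks by 0.42 (SE 0.24, adjusted p = 0.474). The second *Syp* probe, under the array median throughout, gave 0.44 (SE 0.83) for M+V from control and did not follow the first, with r = -0.02.

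*Sv2a*, the binding site of the antiepileptic drug levetiracetam, read 9.31, 9.21, 9.41, 8.60 and 9.29 at 4 weeks, 9.46, 9.77, 9.74, 8.97 and 9.82 in control, and 7.71 to 9.65 with a median of 9.09 in M+V-treated cochleae. Its M+V arrays spread over a wider range than both other groups. M+V differed from control by -0.58 (SE 0.28, adjusted p = 0.514), and control from 4 weeks by 0.39 (SE 0.29, adjusted p = 0.604). *Sv2b*, its close relative, read 10.20, 9.74, 10.48, 9.39 and 10.45 at 4 weeks, 10.28, 10.40, 10.64, 9.86 and 10.57 in control, and 8.70 to 10.50 with a median of 9.96 in M+V-treated cochleae. M+V differed from control by -0.56 (SE 0.29, adjusted p = 0.552) in the brighter *Sv2b* probe and by -0.13 (SE 0.22, adjusted p = 0.867) in the other tested one, although the values of these probes correlated at r = 0.71. For control from 4 weeks the *Sv2b* probes had opposite signs, 0.30 (SE 0.31) and -0.11 (SE 0.23).

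**Figure D2:**
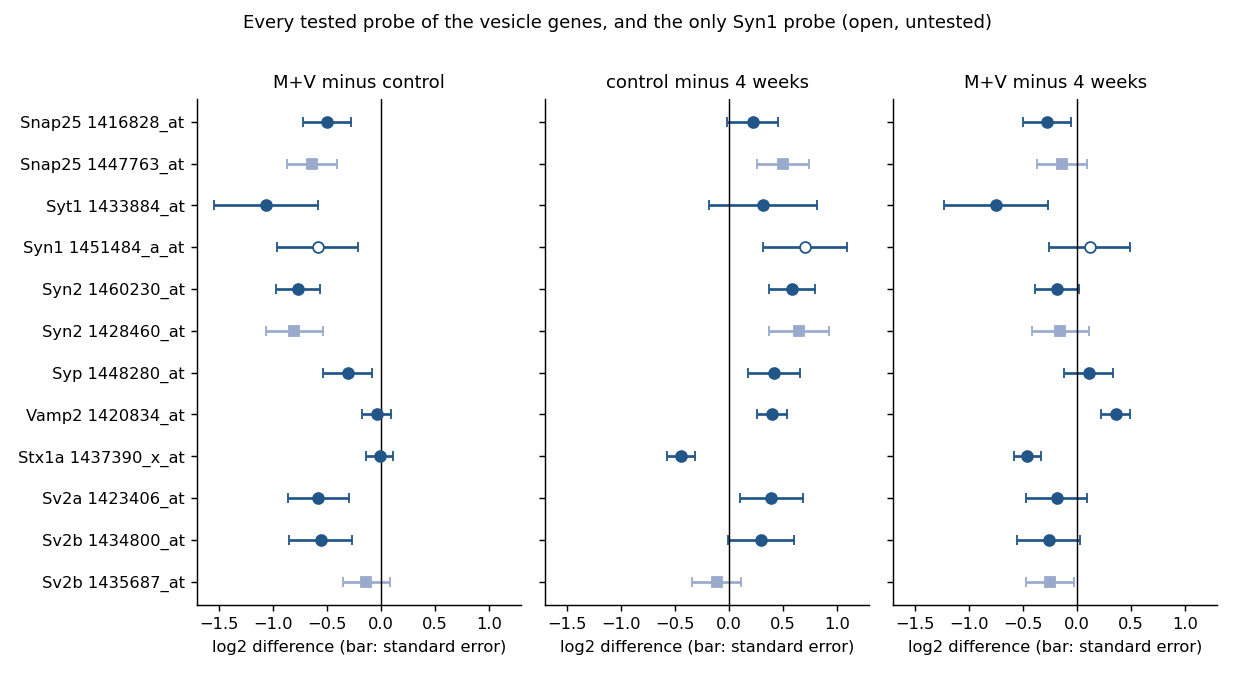
Log2 difference (x axis) with its standard error for each of the 11 tested probes and for the only *Syn1* probe (open symbol), in the 3 comparisons. Circles mark the probe used for a gene and squares its other tested probe. In M+V minus control all points lie below 0 while *Vamp2*, *Stx1a* and the second *Sv2b* probe lie within 1 standard error of it, and in control minus 4 weeks *Stx1a* is lower and the second *Sv2b* probe has the other sign.

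Agreement between probes of a gene was best read where both were bright enough to be tested. The 3 pairs in which both probes were tested, in *Snap25*, *Syn2* and *Sv2b*, correlated at 0.69, 0.87 and 0.71 over the 16 arrays and at 0.60, 0.77 and 0.75 once group means were removed. In 2 of these pairs the differences of M+V from control lay within 1 standard error of each other, and in *Sv2b* they were -0.56 and -0.13. Probes of a gene share arrays and RNA, so these correlations describe the probes and are no replicate of the comparison.

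Most members varied together from array to array. The 21 pairs among *Snap25*, *Syt1*, *Syn1*, *Syn2*, *Syp*, *Sv2a* and *Sv2b* correlated at 0.56 to 0.93 over the 16 arrays with a median of 0.81, and at 0.46 to 0.93 with a median of 0.81 within groups. *Stx1a* and *Vamp2* stood apart, with median correlations of -0.01 and 0.20 to the other members. This division was chosen after the values were seen. All points share 16 cochleae and the same normalization.

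**Figure D3:**
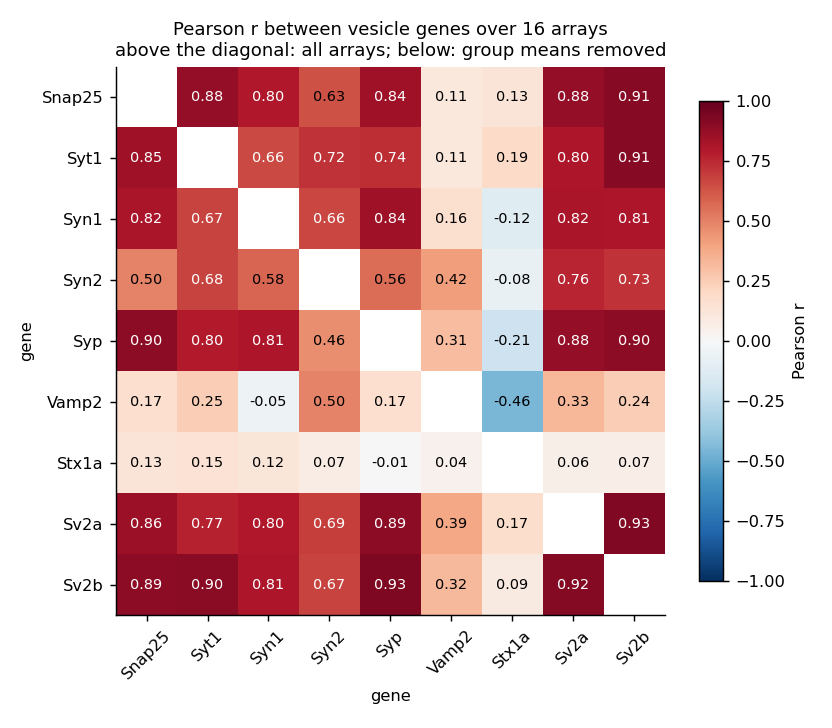
Pearson correlation (colour and number) between the 9 genes over 16 arrays, with all arrays above the diagonal and with group means removed below it. Pairs among 7 genes range from 0.56 to 0.93 above the diagonal, and the rows of *Vamp2* and *Stx1a* are pale.

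The shared level was taken as each gene's log2 signal minus its mean over the 16 arrays, averaged over the 9 genes. It was 0.15, -0.25, 0.21, -0.50 and 0.21 at 4 weeks, 0.38, 0.29, 0.53, -0.20 and 0.42 in control, and -0.47, -1.04, 0.31, 0.15, 0.08 and -0.28 in M+V replicates 1 to 6. The means were -0.04 ± 0.32 (SD, n = 5), 0.28 ± 0.28 (SD, n = 5) and -0.21 ± 0.50 (SD, n = 6), and the groups overlapped widely while M+V had the widest spread. M+V replicate 2 was the lowest array of its group for 7 genes, control replicate 4 for 6 genes and 4 weeks replicate 4 for 7 genes.

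**Figure D4:**
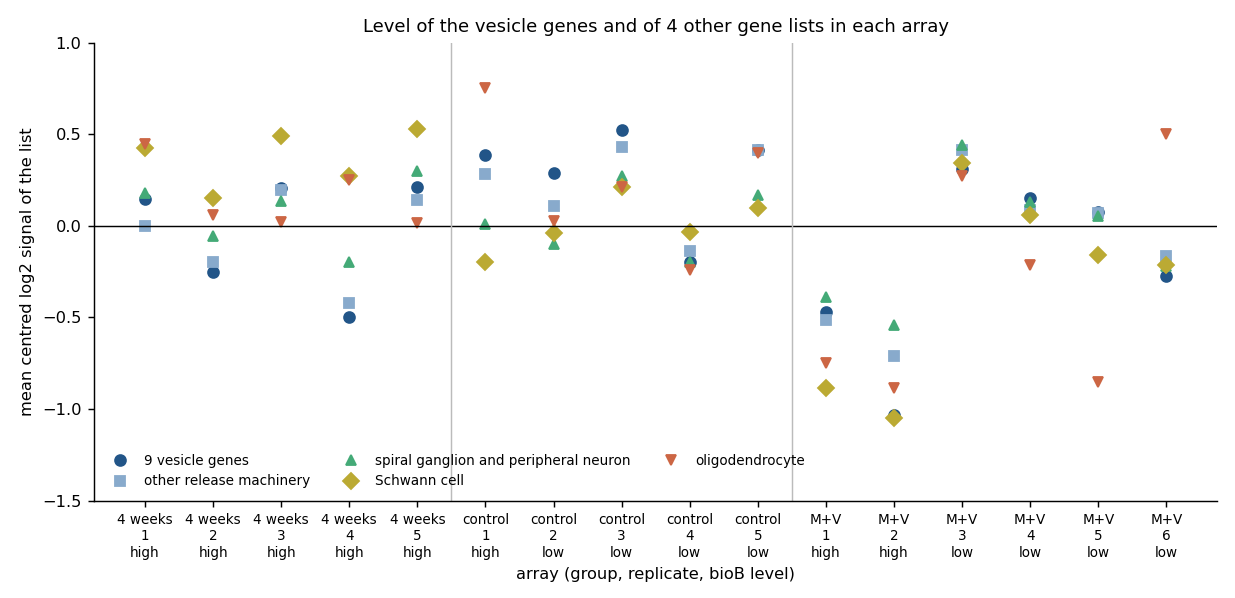
Mean centred log2 signal (y axis) of the 9 vesicle genes and of 4 other gene lists in each of the 16 arrays (x axis, with group, replicate and bioB level). M+V replicates 1 and 2 are low in all 5 lists, and M+V replicate 5 is low for the oligodendrocyte list at -0.85 while the vesicle genes read 0.08.

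Markers of other cell types moved with the vesicle genes in part. For scale in both marker paragraphs, 5166 of all 11457 tested genes were lower in M+V than control. At an unadjusted p under 0.05, 428 of the 11457 were lower. The peripheral part of the cochlear nerve is myelinated by Schwann cells and its central part by oligodendrocytes. The list of spiral ganglion and peripheral neurons had 11 of 14 genes tested, of which 9 were lower in M+V than control (median difference -0.12, 0 lower by the unadjusted threshold), and its summed level was 14.83 to 15.46 at 4 weeks, 14.85 to 15.41 in control and 14.35 to 15.60 in M+V. The oligodendrocyte list had 7 of 12 tested, of which 6 were lower in M+V (median -0.51, 3 unadjusted), with summed levels of 13.26 to 13.68, 12.83 to 13.70 and 12.37 to 13.41. All 4 tested Schwann cell genes of 8 were lower in M+V (median -0.32, 1 unadjusted), with 15.59 to 15.90, 15.32 to 15.68 and 14.54 to 15.70. Both lists reached lower in M+V than in either other group, as did every other marker list, the cochlear list included. For the hair cell list the lowest summed level was 11.51 in M+V, 11.56 at 4 weeks and 11.62 in control. Of the Schwann cell genes tested, *Cnp* and *Mbp* are also made by oligodendrocytes.

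For astrocytes, 7 of 8 tested genes were lower in M+V than control (median -0.24, 2 unadjusted), with summed levels of 15.16 to 15.20 at 4 weeks, 14.98 to 15.22 in control and 14.54 to 15.20 in M+V. For neurons of the cerebellum and brainstem, 6 of 16 genes were tested and 5 were lower (median -0.31, 2 unadjusted), with summed levels of 12.70 to 13.73, 12.91 to 13.91 and 12.17 to 13.83. The hair cell list, with 5 of 13 tested, had 1 gene lower and a median of 0.09. No listed marker was at 0 in any array, but *Gabra6*, *Cbln3* and *Pcp2* of the cerebellum and *Mog*, *Opalin* and *Olig2* of oligodendrocytes did not pass the filter. Over the 16 arrays the vesicle level correlated at 0.86 with the spiral ganglion list, 0.88 with the cerebellar and brainstem list, 0.66 with the Schwann cell list, 0.55 with the oligodendrocyte list and 0.11 with the hair cell list. With group means removed these correlations were 0.93, 0.87, 0.83, 0.44 and 0.24 in the same order, so the spiral ganglion list then came first. The part of these cells in the vesicle genes' differences was not tested.

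M+V replicates 1 and 2, which have the high bioB level, between them held the lowest M+V value of all 9 members, and the median difference from control was smaller without them. The 9-gene median was -0.56 over all arrays, -0.21 without these arrays, -0.15 among the arrays of the low level and -1.20 among those of the high level, the last from 2 M+V arrays and 1 control array. Without them, an alternative chosen after the values were seen, 7 of 9 genes were below 0 and 2 of 11 probes were past the study's cutoffs, against 0.720% of all tested probes, 1 for *Syn2* and the second probe of *Snap25* (-0.60, SE 0.22). *Syn2* was -0.65 (SE 0.22) without them and -0.66 (SE 0.24) among the low-level arrays, while *Snap25* was -0.22 (SE 0.19) and -0.15 (SE 0.18), *Syt1* -0.51 (SE 0.45) and -0.33 (SE 0.38), and *Syp* -0.01 (SE 0.19) and -0.02 (SE 0.15). Without M+V replicates 1 and 2, *Sv2a* was -0.23 (SE 0.21), *Sv2b* -0.15 (SE 0.23) and *Syn1* -0.21 (SE 0.30). Without M+V replicate 2 alone, *Snap25* was -0.33, *Sv2a* -0.33, *Sv2b* -0.34, *Syn1* -0.27 and *Syp* -0.14. Once the level of 15 oligodendrocyte and astrocyte genes entered as a covariate, the 9-gene median was -0.25, and *Syn2* was -0.51 (SE 0.20). For *Syn2* the range over all alternatives was -0.96 to -0.51, always lower in M+V and never past adjustment.

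**Figure D5:**
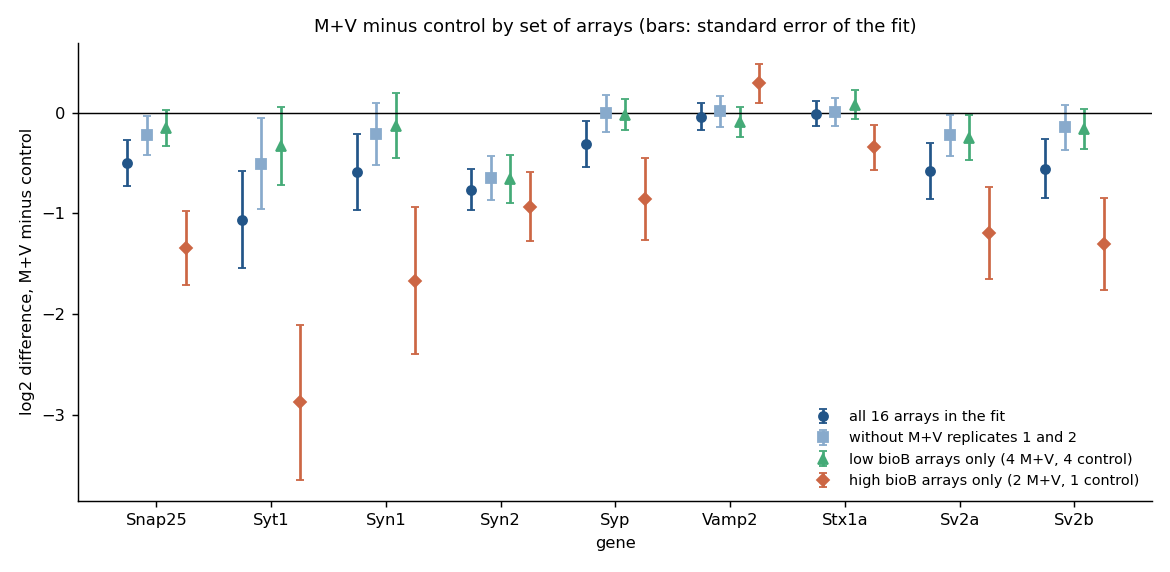
Log2 difference of M+V from control (y axis, with the standard error of each fit) for the 9 genes over all arrays, without M+V replicates 1 and 2, and within each bioB level. *Syn2* keeps a value between -0.93 and -0.65 in the 4 sets, while *Syt1* runs from -2.88 to -0.33.

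The other genes of the release machinery came from a fixed list of 44, of which 42 were on the array with 109 probes and 33 were tested. In M+V against control 29 of the 33 genes were below 0 (median -0.36), against 5166 of all 11457 tested genes (median 0.02). At an unadjusted p under 0.05, 6 of the 33 were lower and 0 higher, against 428 and 583 of all 11457, and 0 passed adjustment. By size relative to error the leading genes were *Rims2* (-0.64, SE 0.22, adjusted p = 0.441) and *Rims1* (-0.91, SE 0.36, adjusted p = 0.461), active zone scaffolds. They were followed by *Cadps* (-0.62, SE 0.25), a priming factor of dense-core vesicles, *Syt2* (-0.57, SE 0.25), the fast calcium sensor of many auditory synapses, *Cplx2* (-0.36, SE 0.16), a complexin, and *Nsf* (-0.43, SE 0.20), the ATPase that recycles SNAREs. *Rims1* also stands in the study's list chosen on these arrays. The level of the whole list correlated with that of the members at 0.97 over the 16 arrays, all of which they share.

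In control against 4 weeks 29 of the 33 release genes were above 0 (median 0.33), against 5956 of all 11457 tested genes (median 0.01). At an unadjusted p under 0.05, 5 of the 33 were higher and 0 lower, against 778 and 815 of all 11457, and 0 passed adjustment. The leading genes were *Scamp5* (0.46, SE 0.17, adjusted p = 0.234), *Cplx2* (0.42, SE 0.17, adjusted p = 0.265), *Syt4* (0.60, SE 0.25, adjusted p = 0.288) and *Syn3* (0.33, SE 0.15, adjusted p = 0.334), the third synapsin. In M+V against 4 weeks the median was -0.07, against 0.03 over all tested genes. By the adjusted threshold 1 of 62 probes was lower, against 3.20% of all tested probes. The probe that passed was the dimmer of the tested *Cplx2* probes, at -0.94 (SE 0.16, limma adjusted p = 0.0029), and is named because it passed. The brighter *Cplx2* probe had the opposite sign, at 0.07 (SE 0.16, limma adjusted p = 0.844).

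The genes most like the members, by Pearson correlation with their shared level over the 16 arrays among 11416 genes that were neither members nor on the release machinery list, were *Gdap1* (0.98), *Tagln3* (0.96), *Kif5a* (0.96), *Unc80* (0.96), *Dnm3* (0.96) and *Esrrg* (0.95). *Kif5a* encodes a neuronal kinesin and *Dnm3* a dynamin. *Gdap1* averaged 10.38 ± 0.34 at 4 weeks, 10.68 ± 0.38 in control and 10.21 ± 0.62 (SD) in M+V-treated cochleae, the order found for most members. Of the 11416 genes, 268 (2.35%) correlated above 0.8, and the median correlation was -0.05.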

How the data were processed

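Each array, an Affymetrix mouse genome chip, held RNA of the left cochlea of 1 mouse. Per the labels and the study's methods, GCOS software with MAS5 gave the signals, which the authors then quantile-normalized. The values used are the log2 signals deposited by the authors. No genome build is named for them. The members and lists were chosen with earlier results of these data known.

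Signals under 1 were set to 1 (0.869% of values), and 64 of 45101 probes were controls and left out. The array annotation gives 34958 probes 1 symbol, 932 more than 1, and leaves 9211 unnamed. Tested probes were those at or over the median of an array throughout at least 1 group, in place of the present calls of the methods. All 16 arrays entered 1 model of the 3 group means in limma 3.58.1 in R 4.3.3 (lmFit, contrasts.fit, eBayes). Two-sided p-values were adjusted by Benjamini-Hochberg over 21391 tested probes, with a threshold of 0.05. The p-values measure the spread between arrays within a group, each of 1 mouse, shared over the 3 groups. In the main fit this spread includes the bioB level. The number of mice limits precision. The fit was tested on simulated data.

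A gene was read from its brightest tested probe. All members were named, with the release genes of largest moderated t (6 for M+V against control, 4 for control against 4 weeks), the 6 genes most like the members, and listed markers. A list's summed level is the log2 of its tested genes' summed signals.

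Alternatives were cyclic loess, log2(signal + 32), other filters, the methods' Welch test, only the compared groups, array weights, a replicate block, the bioB level as a block or alone, covariates for the *Gapdh* ratio and for oligodendrocyte and astrocyte genes, the mean over a gene's probes, and leaving out each array. Residuals of same-numbered arrays correlated at a median of 0.0126 in 15 pairs, with 6 over 0.1, so replicate numbers were not used as pairs.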

Additional observations from a re-analysis of the deposited data

Results flagged for a closer look

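In 27 groups of values, 1 for each of the 9 genes in each of the 3 groups, Dixon's test for a value far from the rest marked 2. Chance alone marks about 1 group in 20. *Syt1* read 8.24 in control replicate 4, with the nearest control array at 9.76. *Sv2a* read 8.60 in 4 weeks replicate 4, with the nearest array at 4 weeks at 9.21. Both arrays were also the lowest of their group for most other members.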

How the results depend on the processing

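In M+V against control every member but *Vamp2* and *Stx1a* kept its direction under all alternatives run, and no member passed adjustment in that comparison under any of them. In M+V against control, 4 of the 11 member probes were past the study's cutoffs. This count became 0 with a 75th percentile filter, but only 2 of the 11 probes were then tested. It became 2 with array weights, 1 with low bioB arrays only and 1 with the brain tissue score as a covariate. That score is the level of the oligodendrocyte and astrocyte genes, and the tissue their RNA came from was not tested. The count was 2 without M+V replicates 1 and 2 together, and 2 to 7 without 1 array. Of the 62 tested release machinery probes, 7 were lower past the cutoffs in the main fit, against 287 of all 21391 tested probes. The 7 release machinery probes became 2 with the 75th percentile filter and with the methods' test, 4 with array weights, the bioB block or the *Gapdh* ratio, 1 with low bioB arrays, the brain tissue score or M+V replicates 1 and 2 left out, 28 with high bioB arrays, and 2 to 19 without 1 array. Over all tested probes the 287 lower became 129 with low bioB arrays, 164 with the brain tissue score and 154 without M+V replicates 1 and 2. With high bioB arrays, where control is 1 array, the counts over all tested probes rose as well. The 28 is to be read beside that rise. The 9-gene median was -0.15 with low and -1.20 with high bioB arrays.

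In control against 4 weeks, the 1 member probe became 2 with cyclic loess, no filter or array weights, and 0 to 3 without 1 array. It became 0 with log2(signal + 32), the methods' test, the bioB block or the 75th percentile filter, which left only 2 member probes tested. Adjusted calls became 1 with array weights (*Stx1a*, -0.49). The 2 release probes became 0 with log2(signal + 32), the methods' test or the brain tissue score, 6 with no filter or array weights, 4 with the 25th percentile filter, 1 with only the compared groups or the bioB block, 5 with high bioB arrays, and 0 to 6 without 1 array. Over all 21391 tested probes, 221 were higher and 299 lower past the cutoffs in the main fit, and 432 and 623 with the bioB block. With high bioB arrays, where control is 1 array, these counts rose as well. The 9-gene median was -0.082 with the bioB block.

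In M+V against 4 weeks, the count of 0 past the cutoffs became 2 with no filter or the bioB block. It became 1 with the 25th percentile filter and 4 with high bioB arrays. Counts over all tested probes rose as well. In the main fit 592 were lower and 346 higher past the cutoffs. These were 1186 and 782 with the bioB block, and 1570 and 1107 with high bioB arrays. The release counts in those settings are to be read beside these. The filters also changed the number tested. No filter left 22 member and 109 release probes, and the 25th percentile filter 16 and 86. The 75th left 2 and 34, and *Stx1a* was not among the 2. The adjusted call of 1, *Stx1a*, became 0 with no filter, the 25th or 75th percentile filter, the methods' test, the replicate block (-0.47), the bioB block (-0.39), high bioB arrays (-0.50), the brain tissue score (-0.44) or M+V replicates 1 and 2 left out (-0.44), 2 with array weights (*Vamp2* joined, 0.41), and 0 to 1 without 1 array. The 1 release probe became 7 with no filter, 3 with the 25th percentile filter, 0 with the 75th, 3 with the replicate block, 13 with the bioB block, 31 with high bioB arrays, 3 with the *Gapdh* ratio, 2 with the brain tissue score, 3 with M+V replicates 1 and 2 left out, and 1 to 6 without 1 array. The 9-gene median was -0.63 with high bioB arrays.

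Signs turned as follows. In M+V against control, *Stx1a* was 0.058 with array weights, 0.080 with low bioB arrays, 0.012 with the brain tissue score and 0.0063 without M+V replicates 1 and 2, and *Vamp2* was 0.00079 with the bioB block, 0.29 with high bioB arrays and 0.012 without M+V replicates 1 and 2. Without 1 array they ran from -0.14 to 0.062 and from -0.15 to 0.063. In control against 4 weeks the bioB block gave *Snap25* -0.082, *Syt1* -0.26, *Syp* -0.051, *Sv2a* -0.17 and *Sv2b* -0.35, and high bioB arrays gave *Vamp2* -0.032. In M+V against 4 weeks *Syn1* was -0.25 with the bioB block and -0.63 with high bioB arrays, and *Syp* -0.28 and -0.49. The brain tissue score gave *Syn2* 0.035, *Sv2a* 0.012 and *Sv2b* 0.00074, and leaving out M+V replicates 1 and 2 gave *Sv2a* 0.16 and *Sv2b* 0.15. Without 1 array *Syn1* ran from -0.091 to 0.43, *Syp* from -0.050 to 0.28 and *Sv2a* from -0.33 to 0.064. The cause of these changes was not tested. With the replicate block, *Syn2* in M+V against control was -0.75 (limma adjusted p = 0.414). Low signals limit the dim probes most.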
